A study of Citrullus lanatus with 36 samples.

Results

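Flesh of homozygous *Cmnor* melons that had been stored for 6 d was compared with flesh of *Cmnor* melons still on the vine at 39 d after pollination (DAP). The groups were taken from the sample labels and comprise 3 stored libraries and 3 vine libraries, 6 of the 36 libraries of the series. All fruits carried the edited *Cmnor* allele on both chromosome copies in the oriental melon line BY9H, and no treatment is named for them. By the account in the methods, the stored fruits were picked at 36 DAP and then held in a storage room, so that they were older than the vine fruits as well as detached, and the effects of age and of detachment or storage cannot be told apart in this pair. The levels in *Cmnor* flesh at 36 DAP (3 libraries), the day of picking, are given beside the results as a further point. Stored and 39 DAP flesh of the heterozygote *CmNOR/Cmnor* (3 and 3 libraries) and of the wild type, WT (3 and 3 libraries), serve for comparison of the change between genotypes. The mutant is 1 CRISPR/Cas9 line with a deletion in the NAC domain of CmNOR, and the heterozygote is the progeny of a cross between that line and its WT parent.

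CmNOR is the melon counterpart of the tomato ripening factor NON-RIPENING, a NAC transcription factor without which climacteric fruits ripen poorly. A fruit on the vine keeps receiving water, sugars and minerals through the phloem and xylem. A picked fruit lives on its own reserves of carbohydrates and mineral nutrients and loses water through its surface. The study describes thin-skinned melons as sucrose-dominated, in contrast to fruits that accumulate starch. In climacteric fruits ethylene drives ripening after harvest, and jasmonate, abscisic acid (ABA) and cytokinin respond to wounding, water loss and nutrient supply.

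Levels are in FPKM (fragments per kilobase of transcript and per mapped fragments of the library), with 1 value for each gene and library. Depth, read from the smallest steps between low FPKM values, was such that 1 fragment on a gene of 1 kb was worth 0.0271 to 0.0303 FPKM in stored and 0.03 to 0.0328 FPKM in vine libraries, or about 33.0 to 36.9 (stored) and 30.5 to 33.4 (vine) in units of 1e6 fragments a library. Over the 15407 genes that averaged 1 FPKM or more in the 36 libraries, log2 levels of replicates correlated at 0.988 to 0.993 among stored libraries. Among vine libraries they correlated at 0.978 to 0.992, and vine replicate 1 stood farthest from the others. Without vine replicate 1 the counts of differentially expressed genes given below were 1718 higher and 1492 lower. As neither labels nor methods give an identifier for *CmNOR*, the edited gene itself was not checked. The methods give 3 melons for each genotype and time point, but nothing in the labels ties a library to 1 fruit. The p-values rest only on the spread between replicate libraries, which was estimated over all 36 libraries in 12 groups and not over these 6 alone.

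Genes of starch metabolism and structural wall proteins were among those higher in stored flesh, and genes of jasmonate synthesis and signalling, ethylene-responsive factors, cytosolic ribosomal proteins and photosystem proteins among those lower. Of 24901 genes tested, 1533 (6.16%) were higher and 1266 (5.08%) were lower in stored flesh as differentially expressed genes (DEGs), called by limma at an adjusted p under 0.05 where the log2 fold change was 1 or more, up or down. At the adjusted p alone 26.8% of all genes tested were higher and 20.8% were lower, and among the 15682 genes that averaged 1 FPKM or more over the 6 libraries these shares were 35.3% and 28.7%. The counts of gene lists below, taken at the adjusted p alone, are read against these shares. For 28.5% of the genes the 3 stored libraries all lay above the 3 vine libraries, and for 22.2% all lay below. Fold changes are differences of log2(FPKM + 1), so that changes of low genes are understated. Under scaling to the median gene the balance turned, with 44.8% of the DEGs higher (1133 higher and 1396 lower) in place of 54.8%, and under scaling to the upper quartile 49.0% were higher (1246 and 1295). Under both scalings the larger of the 2 counts changed side for the lists of ethylene synthesis, ABA signalling and cutin, suberin and wax, and for carotenoid synthesis the counts became equal under median scaling. Because FPKM are shares of each library, a lower level of 1 gene and more RNA of others cannot be told apart, nor can fewer cells of a type and less RNA per cell.

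**Figure D1:**
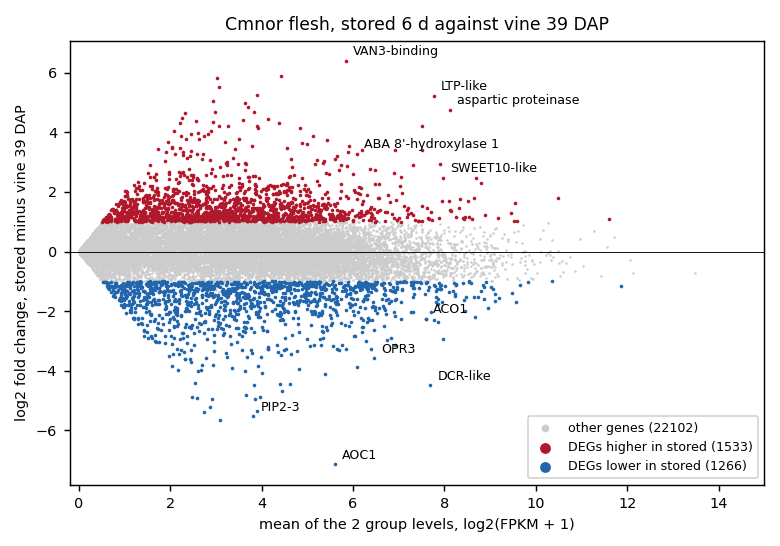
Log2 fold change (stored minus vine 39 DAP, y axis) of each gene in *Cmnor* flesh against the mean of both group levels as log2(FPKM + 1) (x axis). Each point is 1 of 24901 genes, red for the 1533 DEGs higher and blue for the 1266 DEGs lower in stored flesh, and names mark genes described in the text.

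The gene with the highest fold change encoded a VAN3-binding-like protein (MELO3C006503.2, chr6:3751980-3756414, minus strand, Melon DHL92 v3.6.1), of a family named for a partner of the vein-patterning protein VAN3 of Arabidopsis. It reached 515, 456 and 593 FPKM in stored flesh, against 7.56, 4.11 and 4.35 FPKM in vine flesh (log2 fold change 6.40 ± 0.21 (SE), adjusted p = 4.1e-19), a ratio of means of 97.6. The level at picking was also low, with 19.4, 8.88 and 10.2 FPKM at 36 DAP. Thus the 3 stored libraries stood far above the other 6, with no overlap.

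Wall protein genes followed. A glycine-rich cell wall structural protein (MELO3C031941.2, chr6:33948497-33949264, plus strand) had 149.6, 205 and 146 FPKM in stored flesh, against 1.84, 1.76 and 1.73 FPKM in vine flesh (log2 fold change 5.90 ± 0.13 (SE), adjusted p = 4e-23). An extensin-3-like gene, whose product belongs to the hydroxyproline-rich glycoproteins that are cross-linked into walls (MELO3C023678.2), had 59.8, 47.5 and 72.7 FPKM in stored flesh, against 0.0455, 0.125 and 0.0428 FPKM in vine flesh (log2 fold change 5.81 ± 0.10 (SE), adjusted p = 7.1e-25). Both were below 2 FPKM in every vine library and above 40 FPKM in every stored library. A gene for a lipid-transfer-like protein (MELO3C018657.2) had 1307, 1253 and 1416 FPKM in stored flesh, against 42.8, 27.2 and 34.5 FPKM in vine flesh (log2 fold change 5.23 ± 0.16 (SE), adjusted p = 6.1e-20). An aspartic proteinase gene (MELO3C007408.2), whose product is a protein-digesting enzyme, had 1464, 1293 and 1547 FPKM in stored flesh, against 63.1, 39.4 and 56.3 FPKM in vine flesh (log2 fold change 4.76 ± 0.11 (SE), adjusted p = 5.6e-22). For neither gene did a stored library overlap with a vine library, as the ranking required. The rest of the 12 genes with the highest fold changes included a gene described as hippocampus-abundant-transcript-like (MELO3C011338.2; log2 fold change 4.84) and 4 loci without a described function, among them MELO3C022729.2, MELO3C034003.2 and MELO3C006590.2, with log2 fold changes of 4.67 to 5.24.

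Genes of the LOB domain family, plant-specific transcription factors of which LBD18 acts in lateral root formation of Arabidopsis, stood among the highest as well. *LBD19* (MELO3C022505.2) had 55.7, 48.6 and 62.7 FPKM in stored flesh, against 0.0906, 0.442 and 0.17 FPKM in vine flesh (log2 fold change 5.52 ± 0.10 (SE), adjusted p = 1.4e-24). An *LBD18*-like gene (MELO3C000192.2) had 37.8, 40.8 and 48.5 FPKM in stored flesh, against 0.173, 0.0793 and 0.735 FPKM in vine flesh (log2 fold change 5.05 ± 0.16 (SE), adjusted p = 9.5e-20). Another *LBD18*-like gene (MELO3C000068.2) averaged 12.8 ± 2.21 FPKM in stored and 0.0798 ± 0.0737 FPKM in vine flesh (SD, n = 3 each). Both *LBD18*-like models are partial and may be near-identical copies between which reads were divided, so their separate levels are uncertain. The family as a whole did not move one way. Of its 31 members tested, a list drawn up after the values were seen, 9 were higher and 8 lower, and *LBD25* (MELO3C021578.2), for example, averaged 2.96 ± 0.577 FPKM in stored and 20.8 ± 3.45 FPKM in vine flesh.

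At the other end of the range stood allene oxide cyclase 1 (MELO3C003015.2, chr9:9969394-9971201, minus strand), an enzyme of jasmonate synthesis, with 10.4, 0.509 and 0.782 FPKM in stored flesh, against 266, 722 and 449 FPKM in vine flesh (log2 fold change -7.14 ± 0.55 (SE), adjusted p = 1.9e-11). Its level at 36 DAP was 405, 488 and 493 FPKM, so that vine flesh kept the level of the day of picking and stored flesh did not. The plasma membrane water channel PIP2-3 (MELO3C014239.2, chr5:4880993-4882676, plus strand) had 0.882, 1.44 and 0.829 FPKM in stored flesh, against 67.1, 114 and 104 FPKM in vine flesh (log2 fold change -5.53 ± 0.34 (SE), adjusted p = 2.1e-13), with 359, 298 and 305 FPKM at 36 DAP. The libraries of the groups did not overlap for either gene.

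Of the 12 genes with the lowest fold changes, 4 encoded factors of the AP2/ERF family, to which many ethylene and stress responses trace. *ERF110* (MELO3C024989.2) had 0.233, 0.0846 and 0.188 FPKM in stored flesh, against 37.3, 75.5 and 70 FPKM in vine flesh (log2 fold change -5.67 ± 0.21 (SE), adjusted p = 4.9e-18). *CRF4*-like (MELO3C006973.2) had 0.0923, 0.251 and 0.165 FPKM in stored flesh, against 27.2, 56.2 and 48.7 FPKM in vine flesh (log2 fold change -5.21 ± 0.21 (SE), adjusted p = 4.3e-17). Every vine library lay above every stored library, as the ranking required. *ERF003*-like (MELO3C023458.2) averaged 1.34 ± 0.14 FPKM in stored and 94.5 ± 12.2 FPKM in vine flesh (log2 fold change -5.34 ± 0.31 (SE), adjusted p = 7e-14). *ERF109*-like (MELO3C007559.2) was listed at 0 in the 3 stored libraries, against 16.8, 40.6 and 33.4 FPKM in vine flesh, and no fold is given for it. A monothiol glutaredoxin S10-like gene (MELO3C006620.2), of a family of small redox proteins, had 0, 0 and 0.0878 FPKM in stored flesh, against 36.9, 44.6 and 46.1 FPKM in vine flesh, and a steroid dehydrogenase-like gene (MELO3C012325.2) had 0, 0 and 0.106 FPKM in stored flesh, against 14.4, 42.1 and 45.4 FPKM in vine flesh. Both were thus nearly absent in stored flesh and clearly expressed on the vine. A further 3 of the 12 were AAA-ATPase ASD copies (MELO3C000147.2, MELO3C001419.2 and MELO3C030700.2), which averaged 1.5, 0.341 and 1.27 FPKM in stored flesh, against 82.5, 41.1 and 69.3 FPKM in vine flesh. They share a description and may be near-identical copies, so their separate levels are uncertain. Of the 7 genes so described, a list drawn up after the values were seen, 6 were lower and 0 higher. The last of the 12, a hypothetical protein (MELO3C004351.2), averaged 1.86 ± 0.0607 FPKM in stored and 84.3 ± 17.4 FPKM in vine flesh.

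**Figure D2:**
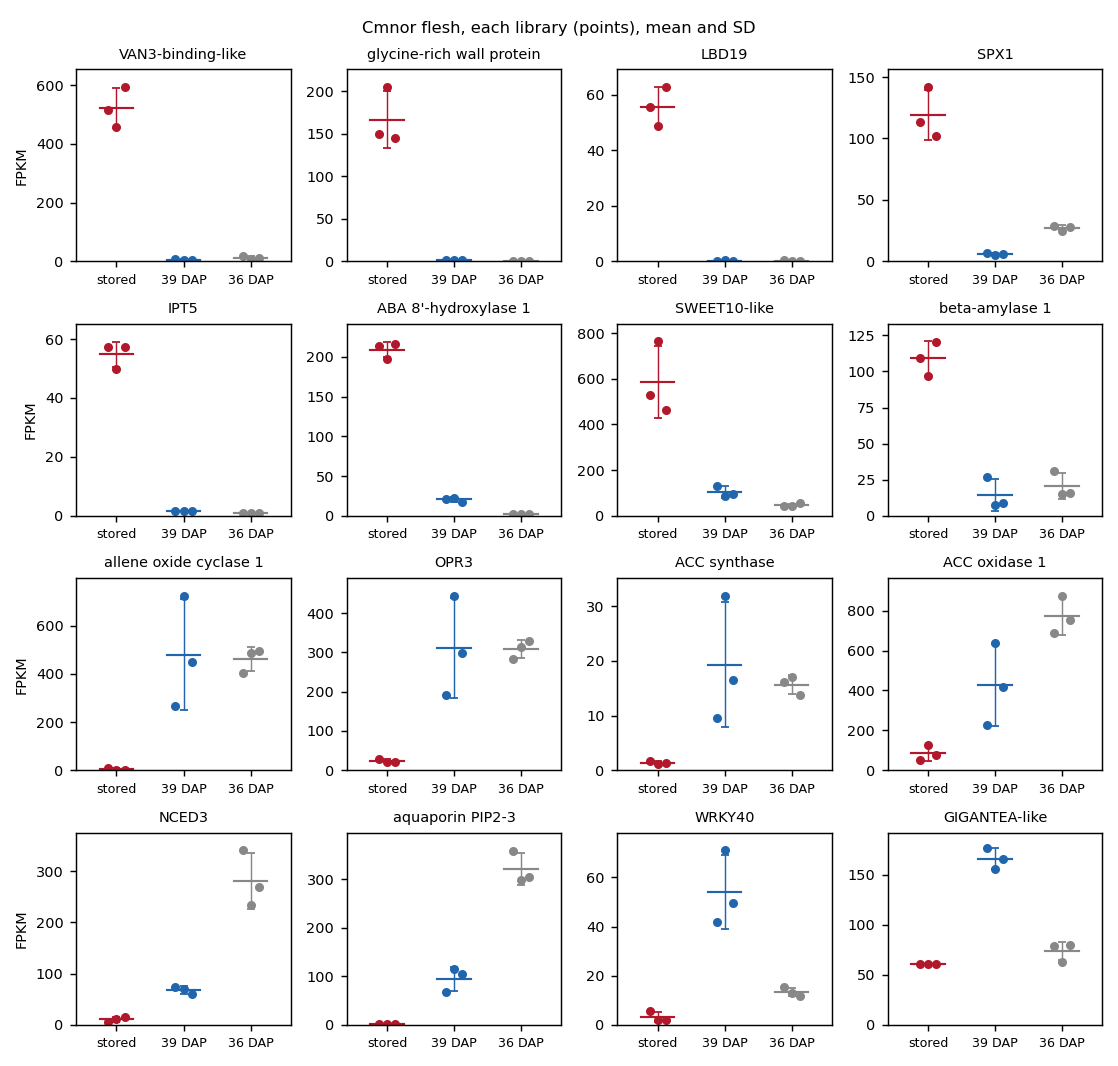
FPKM (y axis, linear, from 0) of 16 genes in each *Cmnor* library, by group on the x axis: stored, vine 39 DAP and vine 36 DAP. Points are libraries, horizontal lines are means and bars are SD (n = 3). In every panel the stored points lie wholly above or wholly below the 39 DAP points.

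Jasmonate is made from linolenic acid by lipoxygenases, allene oxide synthase, allene oxide cyclase and oxophytodienoate reductase, and TIFY (JAZ) proteins, themselves induced by the hormone, repress its responses. Transcripts of several of these steps and of TIFY repressors were lower in stored flesh. Of 56 genes tested 26 were lower and 7 were higher, with a median log2 fold change of -0.18, against 0.00 over all genes. OPR3 (MELO3C029299.2), the reductase that acts in jasmonate synthesis, had 28.4, 21.8 and 21.6 FPKM in stored flesh, against 191, 444 and 299 FPKM in vine flesh (log2 fold change -3.58 ± 0.22 (SE), adjusted p = 1.6e-13). Allene oxide cyclase 4-like (MELO3C022090.2) averaged 22.8 ± 0.543 FPKM in stored and 176 ± 63 FPKM in vine flesh. Lipoxygenase 3-1 (MELO3C024348.2), a plastid lipoxygenase, averaged 18.3 ± 7.38 FPKM in stored and 80.2 ± 18.9 FPKM in vine flesh. Both of these passed the test (limma adjusted p = 4.9e-14 and 0.00022), and the groups did not overlap for any of the 3 genes. Among the repressors, *TIFY5A* (MELO3C007125.2) had 2.18, 0.224 and 0.553 FPKM in stored flesh, against 12.1, 34.1 and 21.7 FPKM in vine flesh (log2 fold change -3.58 ± 0.27 (SE), adjusted p = 1.3e-11). *TIFY10a* (MELO3C015538.2) averaged 56.1 ± 1.62 FPKM in stored flesh, against 244 ± 92.3 FPKM in vine flesh (log2 fold change -2.03 ± 0.16 (SE), adjusted p = 2.3e-11). Allene oxide synthase 2-like (MELO3C018413.2) went the other way, with 429.9, 448 and 401 FPKM in stored flesh, against 340.0, 197 and 249 FPKM in vine flesh (log2 fold change 0.74 ± 0.14 (SE), adjusted p = 0.0001). The summed level of the list was 1107 to 1189.5 FPKM in stored, 1987 to 3235 FPKM in vine and 2853 to 2946 FPKM in 36 DAP libraries, with the largest spread on the vine.

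Ethylene is made from its precursor ACC, which ACC synthase forms and ACC oxidase converts. Of the 14 genes for these enzymes that were tested, 5 were higher and 4 lower in stored flesh (35.7% and 28.6%). Both shares were near the 35.3% and 28.7% of genes that averaged 1 FPKM or more, and the genes named here do not stand for the list. The ACC synthase gene MELO3C016340.2 had 1.75, 1.12 and 1.38 FPKM in stored flesh, against 9.57, 31.9 and 16.4 FPKM in vine flesh (log2 fold change -2.92 ± 0.22 (SE), adjusted p = 1.5e-11). The most abundant ACC oxidase gene on the vine, ACC oxidase 1 (MELO3C014437.2, chr5:2408689-2410670, minus strand), had 53.2, 128 and 78.9 FPKM in stored flesh, against 228, 638 and 415 FPKM in vine flesh (log2 fold change -2.26 ± 0.25 (SE), adjusted p = 1.8e-08), and 689, 875 and 753 FPKM at 36 DAP. Neither gene had overlapping groups, although the vine libraries spread by more than 2-fold for both. Another abundant ACC oxidase gene (MELO3C019735.2) averaged 261 ± 25.2 FPKM in stored and 191 ± 30.1 FPKM in vine flesh (log2 fold change 0.45 ± 0.17 (SE), adjusted p = 0.029), a difference that lost the test under either other scaling (log2 fold change 0.40 and 0.35, adjusted p = 0.07 and 0.12), in the fit of the 12 *Cmnor* libraries alone (adjusted p = 0.054) and without replicate 2 or 3 of either group. ACC oxidase 5 (MELO3C010508.2) was higher at a low level, with 6.53, 6.66 and 6.41 FPKM in stored flesh, against 3.5, 3.08 and 2.4 FPKM in vine flesh (log2 fold change 0.92 ± 0.14 (SE), adjusted p = 2.2e-06).

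In ethylene signalling, 7 of 16 genes were lower and 4 higher. The genes for EIN3-binding F-box protein 1, which marks the ethylene factor EIN3 for degradation, averaged 74.9 ± 6.05 FPKM in stored and 308 ± 26 FPKM in vine flesh for MELO3C003696.2 and 53.2 ± 7.65 FPKM in stored and 189 ± 11.7 FPKM in vine flesh for MELO3C004498.2 (adjusted p = 9.2e-14 and 3.6e-14). *EIN3* itself (MELO3C015633.2) was modestly higher, with 376, 327 and 359 FPKM in stored flesh, against 284, 216 and 245 FPKM in vine flesh (log2 fold change 0.52 ± 0.09 (SE), adjusted p = 2.4e-05). Of 114 ethylene-responsive factor genes 49 were lower and 24 higher, and their summed level was 3685 to 4189 FPKM in stored and 5656 to 5821 FPKM in vine libraries. *ERF014* (MELO3C010466.2) was among those higher, with 44.4, 43.5 and 47.1 FPKM in stored flesh, against 9.98, 8.84 and 7.75 FPKM in vine flesh (log2 fold change 2.23 ± 0.11 (SE), adjusted p = 2.9e-15). *ERF105* (MELO3C005465.2) was among those lower, with 128, 107 and 134 FPKM in stored flesh, against 437, 386 and 384 FPKM in vine flesh (log2 fold change -1.71 ± 0.19 (SE), adjusted p = 2e-08).

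For ABA, the water-stress hormone, transcripts of a breakdown enzyme were far higher in stored flesh while a gene of its synthesis was lower. ABA 8'-hydroxylase 1 (MELO3C016219.2, chr7:22323832-22326137, minus strand), which starts ABA breakdown, had 214, 198 and 216 FPKM in stored flesh, against 21.7, 22.9 and 17.4 FPKM in vine flesh (log2 fold change 3.29 ± 0.22 (SE), adjusted p = 1.2e-12), and 2.83, 1.72 and 1.86 FPKM at 36 DAP. NCED3 (MELO3C027057.2), an epoxycarotenoid dioxygenase of the rate-limiting step of ABA synthesis, had 5.55, 10.7 and 14.9 FPKM in stored flesh, against 74.2, 70.5 and 59.5 FPKM in vine flesh (log2 fold change -2.69 ± 0.22 (SE), adjusted p = 6.1e-11), and 341, 234 and 269 FPKM at 36 DAP. The groups did not overlap for either. NCED6 (MELO3C023086.2), another dioxygenase, was higher in stored flesh (61.8, 49 and 65.8 FPKM) than in vine flesh (24.7, 19.5 and 22.9 FPKM; log2 fold change 1.35 ± 0.18 (SE), adjusted p = 5.3e-07). Over the 16 genes of synthesis and breakdown, 6 were higher and 3 lower (37.5% and 18.75%). Over 34 signalling genes 10 were higher and 9 lower (29.4% and 26.5%). The shares were 26.8% and 20.8% over all genes, and 35.3% and 28.7% of genes that averaged 1 FPKM or more. Among the signalling genes, the receptor gene *PYL9* (MELO3C006033.2) averaged 54.1 ± 4.89 FPKM in stored and 112 ± 6.37 FPKM in vine flesh, and *PYL4* (MELO3C018394.2) averaged 12.4 ± 2.44 FPKM in stored and 4.19 ± 0.995 FPKM in vine flesh (adjusted p = 9.7e-11 and 2.3e-09).

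Genes of starch metabolism were higher in stored flesh more often than those of any other list not drawn up from the values. Of 35 genes tested 23 were higher and 4 were lower in stored flesh, with a median log2 fold change of 0.42, and genes of both synthesis and breakdown were among them. Beta-amylase 1 (MELO3C023067.2, chr5:6925334-6929085, plus strand), which releases maltose from starch, had 109.6, 96.9 and 121 FPKM in stored flesh, against 27.2, 7.36 and 8.81 FPKM in vine flesh (log2 fold change 3.05 ± 0.27 (SE), adjusted p = 2e-10). Branching enzyme 2-2 (MELO3C009445.2) of starch synthesis had 79.2, 87 and 77 FPKM in stored flesh, against 20.9, 13.8 and 14.9 FPKM in vine flesh (log2 fold change 2.25 ± 0.10 (SE), adjusted p = 1.1e-16). Granule-bound starch synthase 1 (MELO3C005795.2), which makes amylose, had 62.7, 62.3 and 54.6 FPKM in stored flesh, against 13.9, 17 and 15.1 FPKM in vine flesh (log2 fold change 1.90 ± 0.13 (SE), adjusted p = 3.3e-12). No stored library overlapped with a vine library in these genes. Beta-amylase 3 (MELO3C013887.2) was an exception to the direction, with 1.97, 1.72 and 1.94 FPKM in stored flesh, against 26.5, 33.1 and 28.8 FPKM in vine flesh (log2 fold change -3.40 ± 0.19 (SE), adjusted p = 3.9e-14). The summed level of the list, 1002 to 1044 FPKM in stored and 735 to 833 FPKM in vine libraries, lay below the 1458 to 1484 FPKM of 36 DAP in both groups.

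Sugar transporters were higher more often than lower, 21 against 8 of 61 (34.4% and 13.1%), the share higher being near the 35.3% of genes that averaged 1 FPKM or more. SWEET10-like (MELO3C026184.2, chr2:26865472-26867397, minus strand), of the SWEET family of sugar exporters, had 530.1, 764 and 464 FPKM in stored flesh, against 132, 86.5 and 94 FPKM in vine flesh (log2 fold change 2.47 ± 0.29 (SE), adjusted p = 4.1e-08), and 41.8, 41.4 and 54.4 FPKM at 36 DAP. SWEET4-like (MELO3C016259.2) averaged 132 ± 29 FPKM in stored and 52 ± 2.99 FPKM in vine flesh (adjusted p = 4.6e-05). The hexose importer gene sugar transport protein 13 (MELO3C014485.2) had 2.88, 0.318 and 0.654 FPKM in stored flesh, against 4.79, 8.06 and 10.3 FPKM in vine flesh (log2 fold change -2.04 ± 0.63 (SE), adjusted p = 0.0084), so that SWEET10-like and this gene differed in opposite directions. Polyol transporter 5-like (MELO3C000503.2) had 41.7, 27.8 and 41 FPKM in stored flesh, against 125, 239 and 201 FPKM in vine flesh (log2 fold change -2.29 ± 0.20 (SE), adjusted p = 2.7e-10).

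Sucrose can be cleaved by sucrose synthase or invertase and is made by sucrose-phosphate synthase. Of 26 such genes 7 were higher and 8 lower (26.9% and 30.8%, against 26.8% and 20.8% over all genes). Sucrose synthase 5 (MELO3C025101.2, chr9:14598163-14603545, plus strand) had 377, 483 and 468 FPKM in stored flesh, against 173, 112 and 123 FPKM in vine flesh (log2 fold change 1.71 ± 0.21 (SE), adjusted p = 1.2e-07). A sucrose-phosphate synthase 4 gene (MELO3C008101.2) had 14.7, 18.9 and 18.8 FPKM in stored flesh, against 2.28, 1.57 and 2.1 FPKM in vine flesh (log2 fold change 2.63 ± 0.12 (SE), adjusted p = 7.5e-16), close to the 19.2, 12.6 and 16.7 FPKM of 36 DAP. A cell wall invertase gene (MELO3C024383.2) had 0.296, 0.48 and 0.341 FPKM in stored flesh, against 3.76, 5.16 and 4.85 FPKM in vine flesh (log2 fold change -2.02 ± 0.13 (SE), adjusted p = 7.8e-13). For none of the 3 genes did the groups overlap.

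Of 111 genes for structural wall proteins (extensins, glycine-rich, proline-rich and arabinogalactan proteins) 49 were higher and 20 lower in stored flesh, with a summed level of 3502 to 3749.6 FPKM in stored and 1707 to 2032 FPKM in vine libraries. The stored level was near the 3229 to 3652 FPKM of 36 DAP. Leucine-rich repeat extensin-like protein 4 (MELO3C004549.2) had 273, 315 and 295 FPKM in stored flesh, against 51.3, 50 and 39.6 FPKM in vine flesh (log2 fold change 2.63 ± 0.39 (SE), adjusted p = 1.9e-06). A neighbouring gene of the same description (MELO3C004550.2) had 69, 72.4 and 73.4 FPKM in stored flesh, against 8.58, 6.79 and 7.18 FPKM in vine flesh, and reads of both may not be fully separated. A glycine-rich wall protein gene (MELO3C013845.2) averaged 21.6 ± 3.25 FPKM in stored flesh and was listed at 0 in every vine library. Of the cellulose synthase family, 14 of 37 genes were higher and 4 lower. The catalytic subunit gene CesA1 (MELO3C003689.2) had 59.4, 58.1 and 56.7 FPKM in stored flesh, against 23.8, 25.4 and 23.2 FPKM in vine flesh (log2 fold change 1.23 ± 0.09 (SE), adjusted p = 5.2e-12), without overlap.

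Enzymes that loosen or digest the wall moved in both directions. Of 30 expansins 12 were higher and 7 lower, of 68 polygalacturonases and pectate lyases 17 were higher and 6 lower. Of 64 pectinesterases and inhibitors 17 were higher and 5 lower (26.6% and 7.81%). Of 27 xyloglucan endotransglucosylase/hydrolases (XTHs) 7 were higher and 7 lower (25.9% each). Except for expansins the share higher was near the 26.8% over all genes, of which 20.8% were lower. Pectinesterase 68 (MELO3C005532.2), which removes methyl groups from pectin, had 31, 29.9 and 37.3 FPKM in stored flesh, against 0.946, 0.164 and 1.01 FPKM in vine flesh (log2 fold change 4.34 ± 0.17 (SE), adjusted p = 2e-17). Polygalacturonase At1g48100-like (MELO3C010668.2), of the enzymes that cut pectin chains, had 2.69, 3.2 and 2.45 FPKM in stored flesh, against 44.1, 34.5 and 31.3 FPKM in vine flesh (log2 fold change -3.31 ± 0.12 (SE), adjusted p = 2.5e-18). Both were separated completely between the groups. The XTH gene MELO3C017480.2 averaged 249.6 ± 4.59 FPKM in stored and 731 ± 119 FPKM in vine flesh (log2 fold change -1.53 ± 0.20 (SE), adjusted p = 4.2e-07).

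Genes that respond to phosphate supply in other plants were higher in stored flesh. This list was drawn up after such genes were seen among the highest fold changes, so its count is a description, and 38 of its 59 members were higher and 8 lower. *SPX1* (MELO3C010343.2, chr2:17441581-17444743, plus strand), of the SPX proteins through which cells sense phosphate, had 113, 142 and 102 FPKM in stored flesh, against 6.87, 4.87 and 5.65 FPKM in vine flesh (log2 fold change 4.14 ± 0.25 (SE), adjusted p = 1.8e-13), and 29.1, 25 and 28.3 FPKM at 36 DAP. A purple acid phosphatase gene (MELO3C010978.2), of enzymes that release phosphate from organic compounds, had 80.7, 94.4 and 70.4 FPKM in stored flesh, against 2.94, 3.02 and 2.31 FPKM in vine flesh (log2 fold change 4.46 ± 0.24 (SE), adjusted p = 2e-14). Every stored library was above every vine library for both genes. A glycerol-3-phosphate transporter gene (MELO3C005383.2) had 665, 627 and 654 FPKM in stored flesh, against 97, 98.7 and 63.3 FPKM in vine flesh (log2 fold change 2.92 ± 0.15 (SE), adjusted p = 2.6e-15). Genes of the lipid exchange by which phosphate-starved cells replace phospholipids were higher as well. They were monogalactosyldiacylglycerol synthase 2 (MELO3C004474.2; 130.4 ± 13.9 FPKM in stored and 8.22 ± 2.66 FPKM in vine flesh), the sulfolipid synthase SQD2 (MELO3C009186.2; 316 ± 38.8 FPKM in stored and 55 ± 5.5 FPKM in vine flesh) and the phosphodiesterase GDPD1 (MELO3C014925.2; 109.8 ± 22.5 FPKM in stored and 8.11 ± 1.25 FPKM in vine flesh), all without overlap. Another monogalactosyldiacylglycerol synthase gene (MELO3C011311.2) was lower, with 11.3, 11.1 and 9.99 FPKM in stored flesh, against 18.1, 40.3 and 28.7 FPKM in vine flesh (log2 fold change -1.28 ± 0.18 (SE), adjusted p = 1.4e-06).

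Over the 49 cytokinin genes of a list drawn up after these values were seen, 18 were higher and 7 lower. Adenylate isopentenyltransferase, which makes the cytokinin precursor, was higher for *IPT5* (MELO3C021401.2), at 57.5, 49.9 and 57.2 FPKM in stored flesh, against 1.76, 1.58 and 1.53 FPKM in vine flesh (log2 fold change 4.41 ± 0.14 (SE), adjusted p = 1.6e-19), and for *IPT3* (MELO3C015852.2), at 15.5, 14 and 14.4 FPKM in stored flesh, against 0.334, 0.37 and 0.471 FPKM in vine flesh (log2 fold change 3.49 ± 0.13 (SE), adjusted p = 5.3e-18). LOG enzymes, which release the active base, were lower for MELO3C025780.2, at 2.2, 3.91 and 1.12 FPKM in stored flesh, against 17.1, 40.5 and 27.3 FPKM in vine flesh (log2 fold change -3.11 ± 0.33 (SE), adjusted p = 6.8e-09), and for MELO3C003761.2, at 0.769, 2.12 and 1.66 FPKM in stored flesh, against 11, 12.8 and 16.2 FPKM in vine flesh (log2 fold change -2.53 ± 0.18 (SE), adjusted p = 5.1e-12). The groups did not overlap in any of these 4 genes, which are among the extremes of the list and do not stand for its other members. Those higher included cytokinin dehydrogenase 7 (MELO3C016911.2), a breakdown enzyme, at 13.1 ± 0.317 FPKM in stored and 2.49 ± 0.687 FPKM in vine flesh.

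Most genes for cytosolic ribosomal proteins were lower in stored flesh. Of 216 genes for cytosolic ribosomal proteins 139 were lower and 7 higher in stored flesh, with a median log2 fold change of -0.56. Their summed level was 19699.6 to 21441 FPKM in stored, 30462 to 36130.4 FPKM in vine and 22061 to 24642 FPKM in 36 DAP libraries, so that it was the 39 DAP vine fruits that stood apart from the day of picking. *RPS12* (MELO3C023463.2) had 382, 347 and 371 FPKM in stored flesh, against 661, 774 and 766 FPKM in vine flesh (limma adjusted p = 2.3e-11). Of 97 organellar ribosomal protein genes 43 were lower and 8 higher.

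Photosystem and antenna protein genes showed the same order of groups. Of 61 genes 30 were lower and 3 higher, and the list summed to 1416 to 1754 FPKM in stored, 3000.0 to 3794 FPKM in vine and 1749.8 to 1942 FPKM in 36 DAP libraries. The light-harvesting gene MELO3C012912.2 of photosystem II had 42.6, 41.4 and 24.6 FPKM in stored flesh, against 226, 117 and 175 FPKM in vine flesh (log2 fold change -2.21 ± 0.23 (SE), adjusted p = 4.3e-09). Subunit XI of photosystem I (MELO3C008731.2) had 32.3, 34.8 and 29.1 FPKM in stored flesh, against 172, 135 and 160.0 FPKM in vine flesh (log2 fold change -2.24 ± 0.15 (SE), adjusted p = 1.9e-12). The groups were apart in both genes. Protochlorophyllide reductase (MELO3C016714.2), the light-dependent step of chlorophyll synthesis, had 99.3, 101 and 88.8 FPKM in stored flesh, against 279, 235 and 277 FPKM in vine flesh (log2 fold change -1.44 ± 0.14 (SE), adjusted p = 1.3e-09). Of 31 chlorophyll genes 13 were lower and 6 higher.

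**Figure D3:**
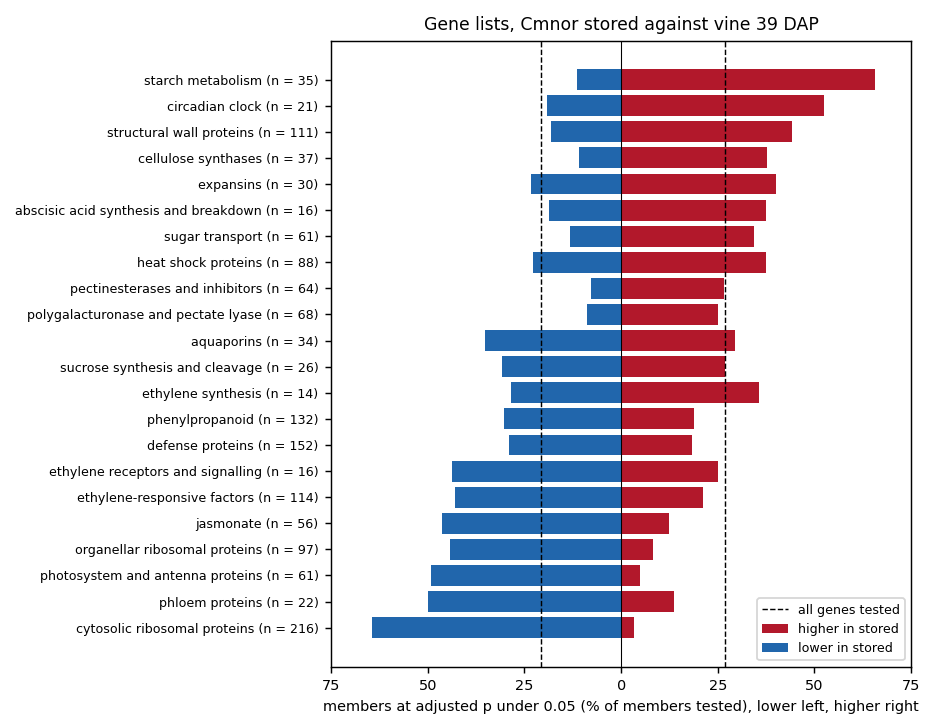
Share of the members of 22 gene lists that passed the test (x axis, % of members tested), red to the right for higher and blue to the left for lower in stored *Cmnor* flesh. Dashed lines mark the shares over all genes, 26.8% and 20.8%. Starch metabolism has the longest red bar and cytosolic ribosomal proteins the longest blue bar.

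**Figure D4:**
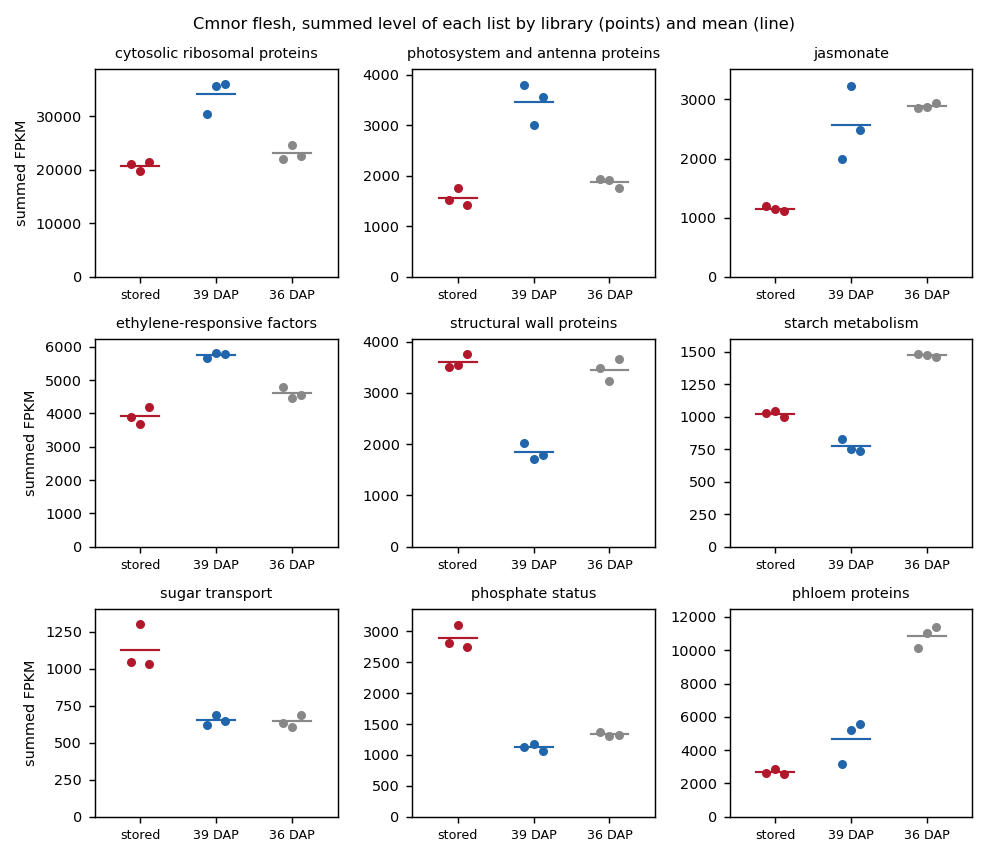
Summed FPKM (y axis, linear, from 0) of 9 gene lists in each *Cmnor* library, by group: stored, vine 39 DAP and vine 36 DAP. Points are libraries and lines are means (n = 3). For the cytosolic ribosomal and photosystem lists every 39 DAP point lies above the stored and 36 DAP points, and for the jasmonate list 36 and 39 DAP are both above stored flesh.

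Genes for WRKY factors and defense proteins differed in both directions, and the single genes named here do not stand for their lists. Among the 61 WRKY genes 17 were lower and 14 higher (27.9% and 22.95%). The share lower was near the 28.7% of genes that averaged 1 FPKM or more. *WRKY40* (MELO3C026740.2), a gene induced by wounding and pathogens in Arabidopsis, had 5.6, 1.83 and 1.88 FPKM in stored flesh, against 41.9, 71 and 49.4 FPKM in vine flesh (log2 fold change -3.83 ± 0.37 (SE), adjusted p = 1.5e-09). *WRKY53* (MELO3C026932.2), a senescence factor of Arabidopsis, had 1.41, 0.0956 and 0.415 FPKM in stored flesh, against 21.8, 29.7 and 19.2 FPKM in vine flesh (log2 fold change -3.96 ± 0.22 (SE), adjusted p = 2.5e-14). Neither gene overlapped between the groups. Of 152 defense protein genes 44 were lower and 28 higher (28.95% and 18.4%), the share lower again being near 28.7%. Among those lower was a cysteine proteinase inhibitor 5-like gene (MELO3C008183.2) with 3.92, 4.82 and 0.736 FPKM in stored flesh, against 34.9, 161 and 146 FPKM in vine flesh (log2 fold change -4.69 ± 0.45 (SE), adjusted p = 1.5e-09). An osmotin-like gene (MELO3C020653.2) was higher, at 30.2, 24.7 and 32.9 FPKM in stored flesh, against 0.755, 0.9 and 0.803 FPKM in vine flesh (log2 fold change 4.05 ± 0.13 (SE), adjusted p = 1.7e-19). Of 62 NAC genes 21 were lower and 12 higher (33.9% and 19.35%). *NAC55* (MELO3C016536.2), of the family to which CmNOR belongs, had 231, 300.0 and 241 FPKM in stored flesh, against 1052, 964 and 869 FPKM in vine flesh (log2 fold change -1.90 ± 0.11 (SE), adjusted p = 1.1e-13).

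Water channel genes differed in both directions. Of 34 aquaporins 10 were higher and 12 lower (29.4% and 35.3%). The shares were 26.8% and 20.8% over all genes, and 35.3% and 28.7% of genes that averaged 1 FPKM or more. Besides PIP2-3, the PIP1-4 genes MELO3C000776.2 and MELO3C025165.2 of the plasma membrane were lower, averaging 1.04 and 0.124 FPKM in stored flesh, against 27.6 and 17 FPKM in vine flesh, and as they may be near-identical copies their separate levels are uncertain. *SIP1-1*-like (MELO3C008793.2), of an endoplasmic reticulum subfamily, was higher, with 140.4, 155 and 145 FPKM in stored flesh, against 40.3, 26 and 30.1 FPKM in vine flesh (log2 fold change 2.18 ± 0.11 (SE), adjusted p = 2.6e-15). *NIP5-1* (MELO3C005818.2), whose Arabidopsis counterpart takes up boric acid, was higher too, with 49, 47.4 and 57.4 FPKM in stored flesh, against 11.5, 8.72 and 8.52 FPKM in vine flesh (log2 fold change 2.31 ± 0.12 (SE), adjusted p = 2.7e-15). Neither gene had overlapping libraries. The PIP1-2 gene named by the study (MELO3C005685.2) had 175, 189 and 181 FPKM in stored flesh, against 351, 265 and 295 FPKM in vine flesh (log2 fold change -0.73 ± 0.13 (SE), adjusted p = 2.2e-05).

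Clock genes differed between the groups, and the hour at which fruits were sampled is not stated in labels or methods. Of 21 clock genes 11 were higher and 4 lower in stored flesh. The morning gene *LHY*-like (MELO3C022302.2) had 99, 116 and 102 FPKM in stored flesh, against 15.9, 8.86 and 11.4 FPKM in vine flesh (log2 fold change 3.06 ± 0.12 (SE), adjusted p = 3e-17), and 127, 100.4 and 96.9 FPKM at 36 DAP. *REVEILLE8*-like (MELO3C009305.2), of the same family, had 25.6, 24 and 24.8 FPKM in stored flesh, against 3.94, 4.78 and 4.51 FPKM in vine flesh (log2 fold change 2.26 ± 0.07 (SE), adjusted p = 5.5e-20), and 29.4, 32.3 and 26.1 FPKM at 36 DAP. The evening gene *GIGANTEA*-like (MELO3C030034.2) had 60.6, 60.9 and 61.1 FPKM in stored flesh, against 177, 155 and 166 FPKM in vine flesh (log2 fold change -1.43 ± 0.11 (SE), adjusted p = 8.1e-12), and 78.3, 62.9 and 80.1 FPKM at 36 DAP. In these 3 genes the stored libraries lay nearer to those of 36 DAP than the 39 DAP libraries did, and the part of sampling hour in the comparison was not tested.

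Markers of other tissues that a flesh sample could hold were counted as well. Of 22 phloem protein genes 11 were lower and 3 higher in stored flesh, with sums of 2558 to 2855 FPKM in stored, 3184 to 5547 FPKM in vine and 10121 to 11421 FPKM in 36 DAP libraries, and vine replicate 1 had the lowest vine sum. Of 14 seed storage genes 4 were higher and 1 lower, with sums of 104 to 109.7 FPKM in stored and 72.4 to 85.2 FPKM in vine libraries. Of 121 genes for cutin, suberin and wax, materials of the rind and of wound tissue, 25 were higher and 23 lower, with sums of 607 to 619 FPKM in stored and 599.9 to 612 FPKM in vine libraries, which overlapped. The shares of members higher and lower were 13.6% and 50% for phloem, 28.6% and 7.14% for seed storage and 20.7% and 19.0% for the cutin list, against 26.8% and 20.8% over all genes. Within the cutin list glycerol-3-phosphate acyltransferase 5-like (MELO3C023876.2), a suberin enzyme of Arabidopsis, had 12.1, 8.79 and 15.9 FPKM in stored flesh, against 0.299, 0.0761 and 0.751 FPKM in vine flesh (log2 fold change 3.26 ± 0.16 (SE), adjusted p = 1.2e-15), and 3-ketoacyl-CoA synthase 12 (MELO3C013669.2), of the enzymes that lengthen fatty acids, had 17.7, 12.9 and 21.1 FPKM in stored flesh, against 0.121, 0.268 and 0.243 FPKM in vine flesh (log2 fold change 3.89 ± 0.09 (SE), adjusted p = 1.2e-22). Both genes lie at the higher end of the cutin list and do not stand for its other members, of which 23 were lower. The part of tissue make-up in the results was not tested.

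Genes named in the study by identifier, for carotenoids, sugars, the wall, water relations, ethylene and defense, numbered 40 among those tested. Of these 11 were higher, 11 were lower and 18 did not pass the test in this pair. For comparison, 26.8% of all genes tested were higher and 20.8% lower, and of genes that averaged 1 FPKM or more 35.3% and 28.7%. The counts thus do not set the named genes apart from other genes. Phytoene synthase 1 (MELO3C025102.2), the entry step of carotenoid synthesis, had 16.3, 20.2 and 16.9 FPKM in stored flesh, against 41.7, 35.4 and 35.9 FPKM in vine flesh (log2 fold change -1.04 ± 0.08 (SE), adjusted p = 5.2e-11). Zeta-carotene desaturase (MELO3C024674.2) went the other way, with 36.7, 35.7 and 36 FPKM in stored flesh, against 24, 18.3 and 20.2 FPKM in vine flesh (log2 fold change 0.77 ± 0.08 (SE), adjusted p = 3.5e-09). In both the groups were apart. Over 24 genes of carotenoid synthesis and cleavage 7 were higher and 5 lower (29.2% and 20.8%), shares near those over all genes. The cellulose synthase-like gene *CSL* (MELO3C017933.2) averaged 9.19 ± 0.896 FPKM in stored and 10.3 ± 1.78 FPKM in vine flesh (log2 fold change -0.14 ± 0.15 (SE), adjusted p = 0.51), and *FERONIA* (MELO3C022041.2) 4.61 ± 0.404 FPKM in stored and 4.76 ± 0.681 FPKM in vine flesh (log2 fold change -0.03 ± 0.13 (SE), adjusted p = 0.93), neither passing the test. Both genes described as pectinesterase 67 (MELO3C031619.2 and MELO3C031751.2) were below 1 FPKM on average in both groups.

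The change between vine and stored flesh of *Cmnor* was then set against the change in the other genotypes, which share no library with it. In WT 516 genes (2.07%) were higher and 925 (3.71%) lower as DEGs in stored flesh, and in *CmNOR/Cmnor* 574 (2.31%) were higher and 899 (3.61%) lower. Of the 2799 *Cmnor* DEGs 389 (13.9%) were DEGs in WT, 27.0% of the WT DEGs, and 175 of these 389 went in opposite directions. With *CmNOR/Cmnor* 370 were shared (13.2% of the *Cmnor* and 25.1% of the *CmNOR/Cmnor* DEGs), 152 of them in opposite directions. The difference of the changes itself passed the test at an adjusted p under 0.05, with a size of at least 1 on the log2 scale, for 4170 genes between *Cmnor* and WT (16.7% of genes tested, 2583 (10.4%) with the higher and 1587 (6.37%) with the lower change in *Cmnor*) and for 4205 genes between *Cmnor* and *CmNOR/Cmnor* (16.9%, 2598 (10.4%) with the higher and 1607 (6.45%) with the lower change in *Cmnor*). These 2 tests share the *Cmnor* libraries.

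The gene with the largest difference was *DCR*-like (MELO3C003230.2, chr8:33450838-33452415, plus strand), an acyltransferase whose Arabidopsis counterpart is needed for cutin. In *Cmnor* it had 44.4, 39.4 and 43.3 FPKM in stored flesh, against 856, 1063 and 999 FPKM in vine flesh (log2 fold change -4.48 ± 0.14 (SE), adjusted p = 1.3e-19), and 205, 201 and 284 FPKM at 36 DAP. In WT it had 174, 176 and 165 FPKM in stored flesh, against 1.26, 1.21 and 1.68 FPKM in vine flesh (log2 fold change 6.19 ± 0.14 (SE), adjusted p = 1.2e-21). In *CmNOR/Cmnor* it had 318, 271 and 322 FPKM in stored flesh, against 2.53, 2.78 and 3.3 FPKM in vine flesh (log2 fold change 6.30 ± 0.14 (SE), adjusted p = 5e-22). Relative to 39 DAP vine flesh it was thus lower in stored flesh of *Cmnor* and higher in stored flesh of both other genotypes, and *Cmnor* minus WT the log2 changes differed by -10.67 ± 0.20 (SE), adjusted p = 3.4e-24.

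SWEET10-like had the reverse pattern. Its level in WT was 0.916, 0.426 and 0.547 FPKM in stored flesh, against 10.5, 6.94 and 8.31 FPKM in vine flesh, and its log2 change in *Cmnor* minus that in WT was 5.02 ± 0.41 (SE), adjusted p = 8.9e-11. In *CmNOR/Cmnor* it was 1.22, 1.53 and 1.52 FPKM in stored flesh, against 27.5, 17.8 and 14 FPKM in vine flesh, and its log2 change in *Cmnor* minus that in *CmNOR/Cmnor* was 5.52 ± 0.41 (SE), adjusted p = 1.4e-11. It was therefore higher in stored than in vine flesh only in *Cmnor* among the 3 genotypes. A GATA factor gene, *GATA8* (MELO3C019804.2), had 198, 239 and 237 FPKM in stored and 32.8, 42.3 and 26 FPKM in vine flesh of *Cmnor*, against 70.1, 24.1 and 30 FPKM in stored and 436, 482 and 461 FPKM in vine flesh of WT, and its log2 change in *Cmnor* minus that in WT was 6.32 ± 0.37 (SE), adjusted p = 1.3e-13. Allene oxide cyclase 1 in WT had 15.4, 1.84 and 1.76 FPKM in stored flesh, against 0.439, 0.215 and 0.365 FPKM in vine flesh, and its log2 change in *Cmnor* minus that in WT was -9.06 ± 0.78 (SE), adjusted p = 2.6e-10. OPR3 in WT had 33.6, 20.9 and 24.1 FPKM in stored flesh, against 20.1, 19.2 and 23 FPKM in vine flesh, and its log2 change in *Cmnor* minus that in WT was -3.87 ± 0.31 (SE), adjusted p = 5.6e-11. Both enzymes were thus lower in stored than in vine flesh of *Cmnor* and not of WT.

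Gene lists also differed between the genotypes. Cytosolic ribosomal protein genes, of which 139 were lower and 7 higher in stored *Cmnor* flesh, counted 107 higher and 7 lower members in stored WT flesh (12.8% and 20.4% of all genes), and the difference passed the test below 0 for 151 of them and above 0 for 11 (16.8% and 26.8% of all genes at the adjusted p alone). For jasmonate genes 23 of 56 differences from WT passed the test below 0 and 8 above 0. For structural wall proteins 43 of 111 passed above 0 and 16 below 0, and for cellulose synthases 17 of 37 passed above and 0 below. For starch genes 18 passed above and 4 below 0, and against *CmNOR/Cmnor* 21 passed above and 3 below 0 (27.1% and 16.3% of all genes). Of the phosphate genes 7 were higher and 13 lower in stored WT flesh, and 23 were higher and 8 lower in stored *CmNOR/Cmnor* flesh (11.7% and 20.9% of all genes), where *SPX1* had 18.5, 10 and 12.2 FPKM in stored flesh, against 2.24, 1.35 and 1.36 FPKM in vine flesh (log2 fold change 2.43 ± 0.25 (SE), adjusted p = 1.1e-08).

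**Figure D5:**
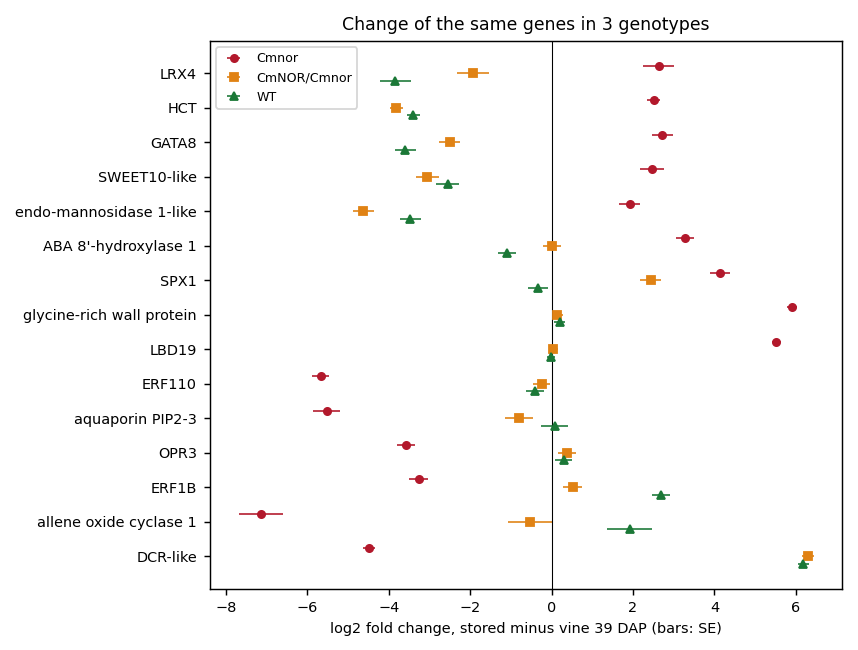
Log2 fold change, stored minus vine 39 DAP (x axis, bars are SE), of 15 genes (rows) in *Cmnor* (red circles), *CmNOR/Cmnor* (orange squares) and WT (green triangles). SWEET10-like is above 0 in *Cmnor* and below 0 in the other genotypes, and DCR-like is the reverse.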

How the data were processed

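Flesh RNA of 12 groups with 3 libraries each was sequenced. Per the methods, the authors used HISAT2 for alignment to DHL92 melon genome v3.6.1, and the submitters' processing notes name TopHat2, HISAT2, StringTie and Cufflinks without versions. The authors deposited FPKM for each gene and library, with no counts, and these were used as deposited. The sources used here do not give the counting tool, strand setting or filters, and overlapping, antisense and near-identical genes may share reads. The label of organism names another cucurbit, while the methods describe melon. The table holds 25121 named genes, of which 220 were at 0 in every library.

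For the tests log2(FPKM + 1) values of all 36 libraries in 12 groups entered 1 limma fit (version 3.58.1, R 4.3.3) with a variance trend, and p-values were adjusted by Benjamini-Hochberg over 24901 genes. The contrast was stored minus vine 39 DAP, and interaction contrasts compared it between genotypes. FPKM carry no counts, so depth was estimated from the value of 1 fragment, which assumes that the length used was the span of the gene. Precision at low levels is limited by single fragments. Each test script was tested on simulated data. Tables and figures were made with Python 3.11.15, pandas 2.3.3, numpy 2.4.6 and matplotlib 3.10.9.

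Gene lists were made from words in the deposited descriptions, and entries that matched by word only, such as a subtilisin inhibitor, were taken out after the values were seen. The members and lists were chosen with earlier results of these data known, and 4 lists (phosphate, cytokinin, LOB domain, AAA-ATPase ASD) after their values were seen. Genes were named by rule: the 12 highest and 12 lowest fold changes with adjusted p under 0.05, groups that do not overlap and 5 FPKM or more on average in either, the 3 highest and 3 lowest called members of each list, genes that the study names, and the 8 highest and 8 lowest genes of each interaction. A few abundant list members outside this rule were chosen after their values were seen. Alternatives were other scalings, a pseudocount of 0.1, a filter of 1 FPKM in 3 libraries, smaller sets of libraries, a replicate block and other thresholds. Each stored or vine *Cmnor* library of the comparison was also left out in turn, but no library of the other genotypes. Sequences are not shown because no reference was used here.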

Additional observations from a re-analysis of the deposited data

Results flagged for a closer look

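The following genes had a change between stored and vine flesh that differed between genotypes by the interaction test of limma. Values are the log2 change (stored minus vine) in *Cmnor* minus that in the other genotype. Above 0 against WT were *SRRM1*-like (MELO3C024371.2), 5.82, a hydroxycinnamoyltransferase (MELO3C023474.2), 5.91, a thionin-like gene (MELO3C030573.2), 5.94, inositol oxygenase 2-like (MELO3C015430.2), 6.17, *GATA8* (MELO3C019804.2), 6.32, anthocyanidin glucosyltransferase 5 (MELO3C017566.2), 6.37, and the 2 LRX4 genes MELO3C004549.2 and MELO3C004550.2, 6.47 and 6.67. The inositol oxygenase gene, for example, had 4.7, 8.71 and 5.86 FPKM in stored and 0.947, 1.68 and 1.1 FPKM in vine flesh of *Cmnor*, against 1.98, 1.95 and 1.46 FPKM in stored and 66, 52.2 and 64.2 FPKM in vine flesh of WT. Below 0 against WT were *DCR*-like (MELO3C003230.2), -10.67, allene oxide cyclase 1 (MELO3C003015.2), -9.06, skin secretory protein xP2-like (MELO3C016691.2), -8.73, *ERF1B* (MELO3C006430.2), -5.96, sugar transport protein 13 (MELO3C014485.2), -5.63, PIP2-3 (MELO3C014239.2), -5.60, an AAA-ATPase ASD copy (MELO3C001419.2), -5.36, and *ERF003*-like (MELO3C023458.2), -5.34. The xP2-like gene had 2.09, 22.9 and 114 FPKM in stored and 13.2, 12 and 12.9 FPKM in vine flesh of *Cmnor*, against 1695, 872 and 1164 FPKM in stored and 1.01, 0.842 and 0.844 FPKM in vine flesh of WT.

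Against *CmNOR/Cmnor*, the differences above 0 were 5.52 for SWEET10-like (MELO3C026184.2), 5.74 and 6.33 for the hydroxycinnamoyltransferase genes MELO3C027219.2 and MELO3C023474.2, 5.75 for extensin-3-like (MELO3C023678.2), 5.76 for the glycine-rich wall protein (MELO3C031941.2), 5.84 for glycosyltransferase 73C2-like (MELO3C009391.2), 6.01 for the lipid-transfer-like protein (MELO3C018657.2) and 6.55 for a mannan mannosidase (MELO3C022162.2). The mannosidase gene, of a wall-digesting enzyme, had 23.8, 29.8 and 27 FPKM in stored and 8.9, 3.64 and 7.52 FPKM in vine flesh of *Cmnor*, against 17.2, 23.6 and 10.5 FPKM in stored and 451, 438 and 386 FPKM in vine flesh of *CmNOR/Cmnor*. The differences below 0 were -10.78 for *DCR*-like (MELO3C003230.2), -7.50 for xP2-like (MELO3C016691.2), -6.62 for allene oxide cyclase 1 (MELO3C003015.2), -5.43 for *ERF110* (MELO3C024989.2), -5.36 for *ERF003*-like (MELO3C023458.2), -5.36 for the steroid dehydrogenase-like gene (MELO3C012325.2), -5.23 for adenylylsulfate reductase 1 (MELO3C002450.2), an enzyme of sulfate reduction, and -5.15 for *CRF4*-like (MELO3C006973.2). The paired LRX4 genes, the paired hydroxycinnamoyltransferase genes and the AAA-ATPase ASD copy may each share reads with near-identical genes, so their separate values are uncertain. Sets of 3 libraries were too small for a search for single outlying libraries.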

How the results depend on the processing

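With log2(FPKM + 0.1) 2797 genes were higher and 1925 lower as DEGs, and without the fold threshold 6666 were higher and 5185 lower, while 10857 differences from WT and 10797 from *CmNOR/Cmnor* passed. Each stored or vine *Cmnor* library of the comparison was left out in turn. The DEGs then numbered 1407 to 1718 higher and 1151 to 1492 lower. Differences from WT numbered 3843 to 4540, and those from *CmNOR/Cmnor* 3898 to 4610. No WT or *CmNOR/Cmnor* library was left out, so the dependence of these differences on single libraries of those genotypes was not tested. The replicate numbers did not pair the samples, as same-numbered stored and vine libraries deviated from their group means with correlations (r) of -0.048, 0.001 and -0.089. With the replicate block 1533 genes were higher and 1270 lower, and 4167 and 4207 differences passed against WT and *CmNOR/Cmnor*. Other scalings, the filter, the smaller fits and the stricter p kept these counts within 1.5 times. Median fold changes of gene lists moved by more than their SD between stored replicates in 133 cases over the alternative fits, and 189 did not. With single libraries left out 67 moved and 209 did not. Under median scaling, for example, the median was 0.316 for starch genes and -0.664 for cytosolic ribosomal proteins, against 0.424 and -0.562 in the main fit. Of the named genes ACC oxidase MELO3C019735.2 lost the test in the alternatives given above, skin secretory protein xP2-like (MELO3C016691.2) passed it without stored replicate 1 (log2 fold change 1.94, adjusted p = 0.018 by limma) and not with all libraries, and no other named gene changed its side. Depth is an estimate, the strand setting is not given, age and detachment are confounded, and the sampling hour is not given.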

Other observations

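Further gene lists of stored and vine *Cmnor* flesh were counted, beside shares of 35.3% higher and 28.7% lower among genes that averaged 1 FPKM or more. Of 132 phenylpropanoid genes 40 were lower and 25 higher in stored flesh (30.3% and 18.9%), the share lower being near that 28.7%. Their sums were 2547 to 2673 FPKM in stored and 3608 to 3797 FPKM in vine libraries. The phenylalanine ammonia-lyase gene MELO3C017809.2, of the entry step of the pathway, had 2.19, 1 and 0.623 FPKM in stored flesh, against 8.07, 19.1 and 9.14 FPKM in vine flesh (log2 fold change -2.49 ± 0.24 (SE), adjusted p = 1.5e-09), and a cinnamoyl-CoA reductase 2-like gene (MELO3C026745.2) of the lignin branch had 20, 11.6 and 12.3 FPKM in stored flesh, against 90.5, 191 and 141 FPKM in vine flesh (log2 fold change -3.16 ± 0.45 (SE), adjusted p = 1e-06). Neither overlapped between the groups. Class III peroxidases, which act in the wall, summed to 1612 to 2005 FPKM in stored and 922 to 949 FPKM in vine libraries, while 15 of 60 were higher and 13 lower, counts that became equal under upper-quartile scaling (13 and 13) and turned under median scaling (12 and 13). Peroxidase 21-like (MELO3C009329.2) alone had 1329.5, 1520.4 and 1103 FPKM in stored flesh, against 432, 415 and 423 FPKM in vine flesh (log2 fold change 1.62 ± 0.18 (SE), adjusted p = 2.2e-08). Of 55 sulfur genes 20 were higher and 9 lower (36.4% and 16.4%), the share higher being near the 35.3% above. Their sums went the other way, at 1337 to 1370 FPKM in stored and 1924 to 2063 FPKM in vine libraries. The cyanoalanine synthase gene MELO3C021201.2, whose enzyme detoxifies the cyanide released as ethylene is made, had 203, 177 and 183 FPKM in stored flesh, against 756, 892 and 969 FPKM in vine flesh (log2 fold change -2.20 ± 0.12 (SE), adjusted p = 9.9e-15).

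Of 88 heat shock genes 33 were higher and 20 lower, and a gene for a small class I heat shock protein (MELO3C001614.2) had 40.4, 33.5 and 30.6 FPKM in stored flesh, against 6.16, 6.76 and 3.91 FPKM in vine flesh (log2 fold change 2.46 ± 0.23 (SE), adjusted p = 8.5e-10). Of 77 nitrate and peptide transporter genes 27 were higher and 15 lower, and NRT1/PTR family member 7.3-like (MELO3C006241.2), whose Arabidopsis counterpart loads ions into the xylem, had 110.3, 95.9 and 112 FPKM in stored flesh, against 13.6, 23.6 and 14.7 FPKM in vine flesh (log2 fold change 2.59 ± 0.15 (SE), adjusted p = 4.4e-14). Of 37 genes of a carbon starvation list 17 were lower and 9 higher. Its EXORDIUM-like 5 member MELO3C013252.2, of a cell expansion family, had 89.8, 93.7 and 90.7 FPKM in stored flesh, against 3.74, 2.88 and 4.57 FPKM in vine flesh (log2 fold change 4.30 ± 0.17 (SE), adjusted p = 3.4e-17), and a dormancy-associated protein gene (MELO3C015306.2) had 14.8, 9.91 and 12.4 FPKM in stored flesh, against 119, 98.5 and 131 FPKM in vine flesh (log2 fold change -3.14 ± 0.13 (SE), adjusted p = 7.2e-17). Of 124 auxin genes 41 were higher and 36 lower, an order that turned under median scaling (33 and 35), and the auxin efflux carrier gene MELO3C017357.2 had 56.6, 52.8 and 58.3 FPKM in stored flesh, against 10.6, 6.96 and 10.1 FPKM in vine flesh (log2 fold change 2.50 ± 0.11 (SE), adjusted p = 4.7e-16). The stored and vine libraries did not overlap for these genes. The shares higher and lower were 37.5% and 22.7% for heat shock genes, 35.1% and 19.5% for nitrate and peptide transporters and 33.1% and 29.0% for auxin genes. In these lists the share higher was near the 35.3% of genes that averaged 1 FPKM or more. For the carbon starvation list the shares were 24.3% and 45.95%.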
